A study of Homo sapiens with 3 samples.

Results

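Metallothioneins are small, cysteine-rich proteins that bind zinc, copper and cadmium, and 10 genes of this system were read in MCF10A cells out of 62754 genes in the deposited table. The members are the metallothionein genes MT1A, MT1E, MT1F, MT1G, MT1H, MT1M, MT1X and MT2A, the zinc-sensing transcription factor MTF1 and the zinc exporter SLC30A1. They were chosen by name, and all 10 were found through their Ensembl identifiers in GENCODE release 44. MCF10A cells are breast epithelial cells that grow without limit in culture but form no tumours. By the labels, the cells carried an empty vector and had no treatment, and the 3 replicates are of this 1 condition. The sample titles name no batch. By the series' design text, the vector was that of a doxycycline-inducible retroviral system (Retro-X Tet-One), transduced cells were kept by puromycin selection, and no doxycycline was given before harvest. Levels are in TPM, a unit that divides the reads on each gene by the length of its transcript and scales every replicate to the same total. All p-values given here concern differences between these 3 samples or between genes within them, and the labels do not say whether the samples come from separate cultures.

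As background, free zinc in the cell is bound by MTF1, which then binds short DNA motifs named metal response elements in front of its target genes. Metallothioneins and SLC30A1 are the classical targets. The former buffer metal ions in the cytosol, and the latter exports zinc across the plasma membrane. Zinc enters the cytosol through the SLC39A (ZIP) family and leaves it through the SLC30A (ZnT) family.

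The replicates held between 11166546 and 15446347 reads on annotated genes, as recovered from the TPM values and the gene lengths. Replicate 3 stood apart: RN7SL1, a short non-coding RNA, took 15.1% of its TPM against 4.93% and 5.66% in replicates 1 and 2, and 8364 protein-coding genes averaging 10 TPM or more had a median log2 ratio of -0.24 against replicate 1. The label of the line was checked against markers. All 4 basal epithelial markers had means between 49.8 and 6612 TPM. Of 5 luminal and general epithelial markers, 4 were at or above 1 TPM, and KRT19 had 1 read in all. Of 8 markers of immune cells, fibroblasts, endothelium and fat, 2 were at or above 1 TPM, COL1A1 at 4.96 and PECAM1 at 1.77 TPM. The 8 summed to between 6.66 and 7.92 TPM, with COL1A2 and ADIPOQ at 0 reads, and their part in the members' levels was not tested. In a bulk sample, fewer cells that express a gene and less RNA per cell cannot be told apart.

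The 8 metallothionein members lie together on chromosome 16 of hg38, within 75.6 kb from position 56608584 to 56684196, and their coding sequences are close copies. Their reading frames of 61 codons, or 62 in MT1G, hold 20 cysteine codons each. Over the 28 pairs of members, between 88.7% and 94.6% of the aligned coding bases were identical, with a median of 91.9%. Below are the coding sequences of the members with the most reads, MT2A and MT1E, and of MT1X, which stands for members with few reads. They are written 5′ to 3′ from GENCODE release 44, with the cysteine codons in capitals:
MT2A: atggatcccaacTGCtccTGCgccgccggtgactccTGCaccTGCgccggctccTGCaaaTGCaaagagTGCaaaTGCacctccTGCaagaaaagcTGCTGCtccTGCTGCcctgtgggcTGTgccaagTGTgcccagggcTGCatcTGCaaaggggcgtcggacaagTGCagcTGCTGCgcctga
MT1E: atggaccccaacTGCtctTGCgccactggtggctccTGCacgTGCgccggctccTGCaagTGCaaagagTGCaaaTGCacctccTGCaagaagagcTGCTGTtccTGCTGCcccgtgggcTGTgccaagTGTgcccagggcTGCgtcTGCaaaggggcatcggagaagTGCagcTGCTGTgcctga
MT1X: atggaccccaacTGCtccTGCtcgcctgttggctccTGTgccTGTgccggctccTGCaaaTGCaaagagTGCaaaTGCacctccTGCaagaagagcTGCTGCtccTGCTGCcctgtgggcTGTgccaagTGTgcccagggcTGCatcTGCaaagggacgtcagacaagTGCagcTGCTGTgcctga
The capitals fall at the same codons in these sequences, and the pairs differ by scattered bases between and within them. MT2A and MT1E were identical at 172 of 186 bases, with 32 as the longest identical run.

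How far this likeness can move reads between the genes was measured on the genome. Of all windows of 50 bases within the exons of a metallothionein member, the share with an exact copy elsewhere in hg38 was 14.6% for MT2A, 14.3% for MT1M, 12.2% for MT1G, 10.1% for MT1X, 8.80% for MT1H and 3.95% for MT1E. It was 0% for MT1A and MT1F. With windows of 100 bases it was 0% for all 8, but exons shorter than 100 bases gave no such window. Most of the windows counted for each member were thus found at 1 place only, also in the members without reads. Whether reads were lost between these genes was not tested. Windows across exon junctions were not counted, and neither the read length nor the treatment of reads with several positions is given in the sources used here.

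Of the 10 members, 6 had a mean of at least 1 TPM, the cutoff by which the study called a gene expressed, against 24.9% of all annotated genes and 56.7% of protein-coding genes. All 6 were at or above it in every replicate and the other 4 in none. Among the metallothioneins the count was 4 of 8, namely MT2A, MT1E, MT1X and MT1F.

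MT2A (ENSG00000125148, chromosome 16, 56608584 to 56609497) is the broadly expressed member of the family. It was measured at 5054, 5415 and 3796 TPM in replicates 1, 2 and 3, a mean of 4755 ± 850 TPM (SD, n = 3), from 24026, 26463 and 15356 reads. It ranked 12 among all genes and 10 among protein-coding genes by the mean. The protein-coding genes nearest to it in level, by the Euclidean distance of log2(TPM + 1) over the 3 replicates, were HSPA8 at 4641 TPM (distance 0.23), FTH1 at 4560 TPM (0.24) and GAPDH at 5410 TPM (0.35), which encode a heat shock chaperone, the heavy chain of the iron store ferritin and an enzyme of glycolysis.

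MT1E (ENSG00000169715, chromosome 16, 56625475 to 56627112), the gene with the second highest level in the cluster, was measured at 939, 1042 and 726 TPM in replicates 1, 2 and 3, a mean of 902 ± 161 TPM (SD, n = 3). As for MT2A, replicate 2 was the highest and replicate 3 the lowest. The ratio of MT2A to MT1E was 5.38, 5.20 and 5.23 within replicates 1, 2 and 3, so that it moved far less than either gene. MT2A made up 83.9 ± 0.263% (SD, n = 3) of the summed TPM of the 8 metallothioneins and MT1E 15.9 ± 0.246% (SD, n = 3). This sum was 6005, 6469 and 4536 TPM, or 0.600%, 0.647% and 0.454% of all TPM.

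MT1X (ENSG00000187193, chromosome 16, 56682470 to 56684196) was measured at 9.56, 8.66 and 11.2 TPM on the strength of 87, 81 and 87 reads in replicates 1, 2 and 3. Here replicate 3 was the highest. The exons of its canonical transcript share 40.8% of their bases with a long non-coding gene on the same strand, ENSG00000259827, which had 0 reads in every replicate. None of the other 7 metallothionein members shared a base of its canonical transcript with another gene. The part of this overlap in the level of MT1X was not tested.

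MT1F (ENSG00000198417, chromosome 16, 56657731 to 56660698) was the lowest of the members above the cutoff, at 2.53, 2.35 and 2.13 TPM in replicates 1, 2 and 3. These levels rest on 21, 20 and 15 reads. MT1G (ENSG00000125144, 56666730 to 56668065, the only metallothionein member on the minus strand) had 0, 1 and 1 reads, or 0, 0.295 and 0.356 TPM. For a single read the exact 95% Poisson interval ran from 0.0253 to 5.57 reads, which covers counting error only.

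MT1A, MT1H and MT1M, which lie between or beside these genes, had 0 reads in each replicate. The limit that a count of 0 allows, taken as 3 reads per library, was between 1.41 and 1.70 TPM for MT1A, between 1.40 and 1.69 TPM for MT1M and between 0.797 and 0.963 TPM for MT1H. For MT1A and MT1M, a count of 0 in a single library thus does not exclude a level of 1 TPM in that library, and the count was 0 in 3 of 3 libraries. The plot of all members by replicate shows these limits beside the measured levels.

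**Figure D1:**
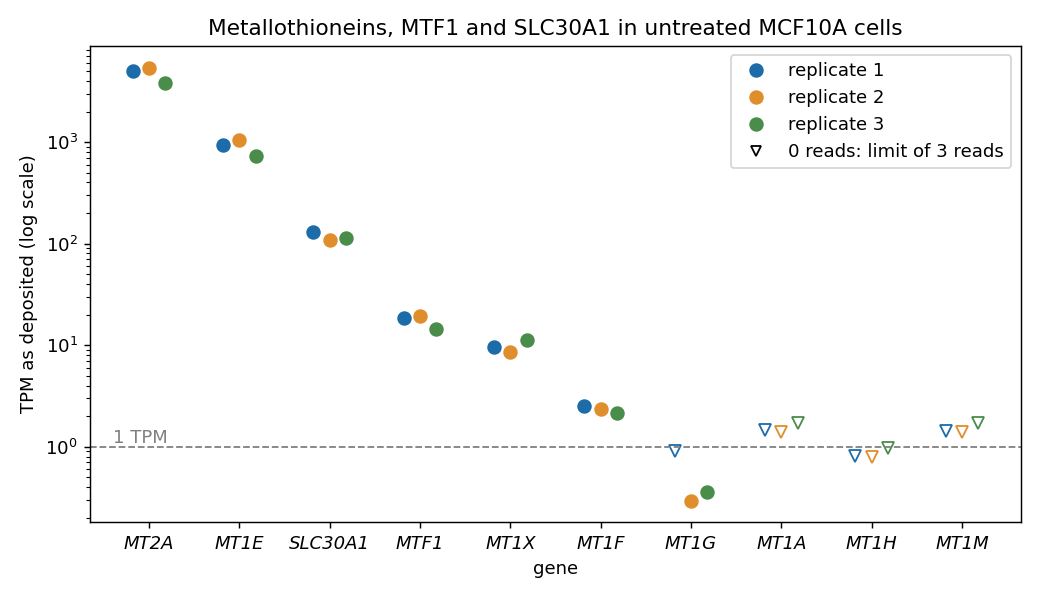
TPM of the 10 members (log axis) in replicates 1 to 3, ordered by the mean; filled circles are measured values and open triangles mark the limit of 3 reads for a gene with 0 reads in that replicate. MT2A lies at 3796 to 5415 TPM and MT1E at 726 to 1042 TPM, while MT1A, MT1H and MT1M have triangles only.

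MTF1 (ENSG00000188786, chromosome 1, 37809574 to 37859592), the factor that senses zinc, was measured at 18.6, 19.4 and 14.3 TPM in replicates 1, 2 and 3, a mean of 17.5 ± 2.73 TPM (SD, n = 3), from 779, 833 and 510 reads. Its level showed the same order of replicates as MT2A and MT1E, with replicate 3 below the others.

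SLC30A1 (ENSG00000170385, chromosome 1, 211571568 to 211579161), the zinc exporter of the plasma membrane, was measured at 131, 108 and 113 TPM, a mean of 117 ± 12.1 TPM (SD, n = 3), from 4068, 3452 and 2978 reads. Replicate 1 was the highest and replicate 2 the lowest, an order that no other member showed. Of the other SLC30A and SLC39A genes above the cutoff, SLC30A4, SLC30A7, SLC30A9, SLC39A1, SLC39A6 and SLC39A10 also had it, and the rest did not. The ratio of SLC30A1 to MTF1 was 7.03, 5.58 and 7.86 within the replicates. The protein-coding genes nearest to it in level were FKBP3 (distance 0.05), GHITM (0.06) and FZD6 (0.06), at means of 119, 116 and 117 TPM.

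By the mean, the deposited levels ran from MT2A over MT1E, SLC30A1, MTF1, MT1X and MT1F to MT1G. Each of these 7 genes was above the next in 3 of 3 replicates, no neighbours overlapped, and every difference on the log2(TPM + 1) scale was larger than the SD between replicates of either gene. The smallest step was from MTF1 to MT1X, at 0.77 with an SD of up to 0.22. An exact two-sided permutation test of 3 against 3 values cannot go below p = 0.10, and it gave this p for all 6 neighbouring pairs.

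The order depends on the length by which the reads were divided. The deposited TPM used the longest annotated transcript of each gene. For MT2A, MT1F and MT1X this is an unspliced transcript that retains the introns, of 903, 1573 and 1727 bases, whereas the canonical transcripts, of 3 exons, have 401, 425 and 404 bases. The length used was 2.27 times the canonical one for MT2A, 3.73 times for MT1F and 4.30 times for MT1X, a ratio of at least 2 that was found for 5.65% of protein-coding genes. With the same reads divided by the canonical length of every gene, MT2A was at 8771 ± 1468 TPM, MT1X at 34.5 ± 5.04 TPM and MT1F at 7.09 ± 0.541 TPM (SD, n = 3 each). MT1E was then at 734 ± 123 TPM, SLC30A1 at 95.6 ± 9.48 TPM and MTF1 at 14.2 ± 2.05 TPM (SD, n = 3 each). The length of these genes is the same on both scales, and their values are lower because the TPM of all genes add to a fixed total. MT1X lay above MTF1 on this scale in 3 of 3 replicates and below it as deposited. MT2A ranked 5 among protein-coding genes in place of 10, and its ratio to MT1E was 12.2, 11.8 and 11.9 in replicates 1, 2 and 3. MT2A then made up 91.9 ± 0.193% and MT1E 7.69 ± 0.130% (SD, n = 3 each) of the metallothionein sum. The canonical transcript of MT1E has 746 bases and 2 exons, whereas the coding sequence shown above comes from a transcript of 704 bases and 3 exons. With the length of the latter, the ratio was 11.5, 11.1 and 11.2.

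**Figure D2:**
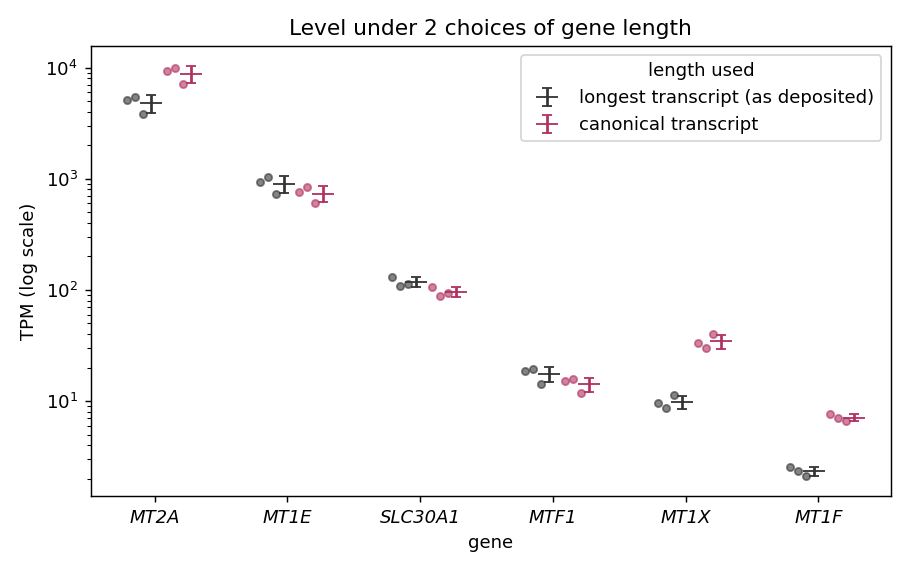
TPM (log axis) of the 6 members with a mean of at least 1 TPM, with reads divided by the longest transcript as deposited (black) or by the canonical transcript (red); dots are the 3 replicates, dashes with bars the mean and SD. MT1X moves from 9.82 to 34.5 TPM and past MTF1, and MT2A from 4755 to 8771 TPM.

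The levels were uneven along the cluster. From MT4, a metallothionein known from squamous epithelium, to the end of MT1X, 22 genes are annotated within 119 kb. Of these, 4 had a mean of at least 1 TPM and 14 had 0 reads. Among the latter, the pseudogenes MT1L and MT1DP share 100% of their bases with long non-coding genes on the same strand, at 0.549 and 0.0957 TPM. The pseudogene rows of MT1JP and MT1IP share 100% and 89.6% with long non-coding genes at 0 TPM. The part of such overlap in these counts of 0 was not tested. The genes with most reads, MT2A and MT1E, start 16.9 kb apart. MT1M, MT1A and MT1B, with 0 reads, start 24.1, 30.1 and 43.3 kb from the start of MT2A and lie between MT1E and MT1F. MT3, known from brain, and MT4 had 0 reads. The list of other metallothionein genes, MT1B, MT1HL1, MT3 and MT4, thus held 0 of 4 genes above the cutoff. The limit of 3 reads per library was above 1 TPM for MT1B (1.42 to 1.72 TPM), MT1HL1 (1.64 to 1.98 TPM) and MT4 (2.07 to 2.51 TPM). MT1B shares 30.5% of its canonical transcript with a non-coding gene on the same strand.

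**Figure D3:**
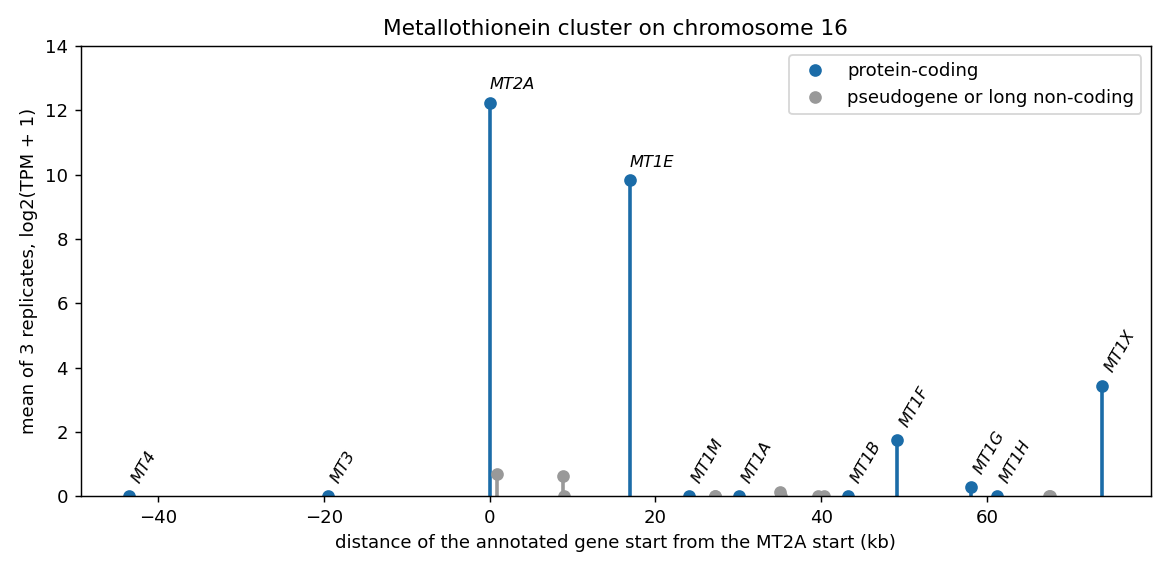
Mean of the 3 replicates as log2(TPM + 1) of the 22 genes annotated from MT4 to MT1X, against the distance of their start from that of MT2A in kb; blue marks protein-coding genes and grey marks pseudogenes and long non-coding genes. Signal stands at MT2A and MT1E, with lower values at MT1F and MT1X, and the other 18 genes lie below 1 TPM.

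Of 9 metallothionein pseudogenes searched by symbol, on 10 rows of the table since MT1JP has 2, the processed copies MT1P1 and MT2P1 had a mean above 1 TPM. The other 8 rows had 0 reads, among them those with the overlaps given above. MT1P1 had 5.21, 3.04 and 0 TPM from 5, 3 and 0 reads, and MT2P1 had 2.08, 1.01 and 0 TPM from 2, 1 and 0 reads. With transcripts of 183 bases, a single read was worth about 1 TPM in these genes, so that their levels rest on 8 and 3 reads in all. Both lie outside chromosome 16, and reads of a metallothionein placed on such a copy cannot be told apart from its own.

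Promoter sequences were searched for matches to the metal response element. The RefSeq table held 5 of the 10 members, MT2A, MT1X, MT1H, SLC30A1 and MTF1. The members MT1A, MT1E, MT1F, MT1G and MT1M had no entry. The core of the element was searched as TGCACNC or TGCGCNC on both strands, where N is any base, in the 250 bases before the start of 35116 RefSeq genes. Matches on opposite strands may overlap. The 250 bases before the start are given for genes with many, few and no reads, 5′ to 3′ on the gene's strand in GRCh38.p14, with the matches in capitals:
MT2A, chr16:56608334-56608583, plus strand: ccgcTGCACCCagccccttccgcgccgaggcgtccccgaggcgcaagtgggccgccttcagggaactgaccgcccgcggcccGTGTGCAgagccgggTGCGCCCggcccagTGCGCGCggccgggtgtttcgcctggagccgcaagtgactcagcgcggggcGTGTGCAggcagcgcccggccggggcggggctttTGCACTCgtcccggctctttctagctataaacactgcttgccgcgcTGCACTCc
MT1X, chr16:56682220-56682469, plus strand: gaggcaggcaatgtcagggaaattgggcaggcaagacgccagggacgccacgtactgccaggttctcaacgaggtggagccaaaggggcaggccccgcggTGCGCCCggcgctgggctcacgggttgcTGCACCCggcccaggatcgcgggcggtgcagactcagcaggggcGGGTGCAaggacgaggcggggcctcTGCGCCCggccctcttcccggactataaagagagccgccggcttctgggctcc
MT1H, chr16:56669564-56669813, plus strand: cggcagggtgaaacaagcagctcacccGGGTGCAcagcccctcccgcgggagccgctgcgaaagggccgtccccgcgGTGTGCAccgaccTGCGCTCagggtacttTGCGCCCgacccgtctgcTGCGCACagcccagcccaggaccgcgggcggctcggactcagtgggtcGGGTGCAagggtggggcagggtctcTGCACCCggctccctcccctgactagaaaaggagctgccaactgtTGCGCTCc
SLC30A1, chr1:211579162-211579411, minus strand: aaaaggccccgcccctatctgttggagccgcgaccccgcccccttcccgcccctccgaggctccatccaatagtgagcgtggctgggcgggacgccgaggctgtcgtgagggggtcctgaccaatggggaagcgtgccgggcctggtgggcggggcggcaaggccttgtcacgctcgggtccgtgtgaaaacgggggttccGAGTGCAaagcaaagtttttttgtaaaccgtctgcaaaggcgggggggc
MT2A held 7 matches, MT1X 4, MT1H 8, SLC30A1 1 and MTF1 0. Of all promoters, 24.8% held at least 1 match, 0.370% at least 4, 0.0313% at least 7 and 0.0171%, or 6 promoters, at least 8. MT1H, with 0 reads in every replicate, thus had more matches than MT2A, the member with the highest level. The matches nearest to the start lay 8 bases before it in both genes. A TATAAA on the sense strand began 29 bases before the start of MT2A and 30 bases before that of MT1X. MT1H held none in this window, nor did SLC30A1 and MTF1, and 6.80% of all promoters held at least 1. The GC content of the 5 promoters was between 66.4% and 73.2%, with a median of 58.0% over all promoters. A match is a description of letters and not a measured binding site.

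The replicates were compared to see how much of the members' spread exceeds the counting error. The reads of a gene in the 3 replicates were set against equal TPM by a chi-square test, which compares these libraries and not conditions, with Benjamini-Hochberg adjustment over 15802 genes with at least 15 reads. Of all genes tested, 54.3% differed between replicates at an adjusted p under 0.05, and of those with at least 1000 reads 83.8% did. Of the 6 members tested, 4 did, and the adjusted p of the chi-square test was 5.95e-279 for MT2A, 3.96e-43 for MT1E, 2.89e-16 for SLC30A1 and 7.00e-07 for MTF1. MT1X had an adjusted p of 0.306 and MT1F of 0.898. The test follows the number of reads, and the members that differed are those with most reads. The highest TPM exceeded the lowest 1.43-fold for MT2A, 1.44-fold for MT1E, 1.35-fold for MTF1, 1.30-fold for MT1X, 1.21-fold for SLC30A1 and 1.19-fold for MT1F.

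The median SD of log2(TPM + 1) over the 6 members was 0.20, beside 0.16 over the 11360 protein-coding genes and 0.19 over all 15632 genes at or above the cutoff. The median of the members was 0.13 under scaling by the median ratio and 0.08 without replicate 3, settings for which no value over all genes is given here. As deposited, MT2A and MT1E, both at 0.27, exceeded 87.6% and 86.8% of the protein-coding genes at or above the cutoff, and MT1F, at 0.09, exceeded 14.5% of them. Of the 6 members, 4 were lowest in replicate 3, as were 84.3% of the protein-coding genes averaging 10 TPM or more. On the log2(TPM + 1) scale, replicate 3 lay below replicate 1 by a difference of -0.41 for MT2A, -0.37 for MT1E, -0.36 for MTF1, -0.22 for SLC30A1 and -0.18 for MT1F, and above it by 0.21 for MT1X. The median of these protein-coding genes was -0.24, and it was -0.16 for the 530 of them with a canonical transcript under 1000 bases, to which the metallothioneins belong by length. MT2A was thus further down in replicate 3 than the typical gene. MT1X was above 99.0% of these protein-coding genes, a set whose limit of 10 TPM its own mean of 9.82 TPM does not reach. Its difference rests on 87 reads in replicate 1 and 87 in replicate 3, and its adjusted p in the chi-square test was 0.306. MT1F, at a mean of 2.34 TPM, does not reach the limit of 10 TPM either. The 1 TPM added before the log shrinks its differences and its SD more than those of genes at 10 TPM or more. On which side of the median MT1F lies is therefore uncertain.

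**Figure D4:**
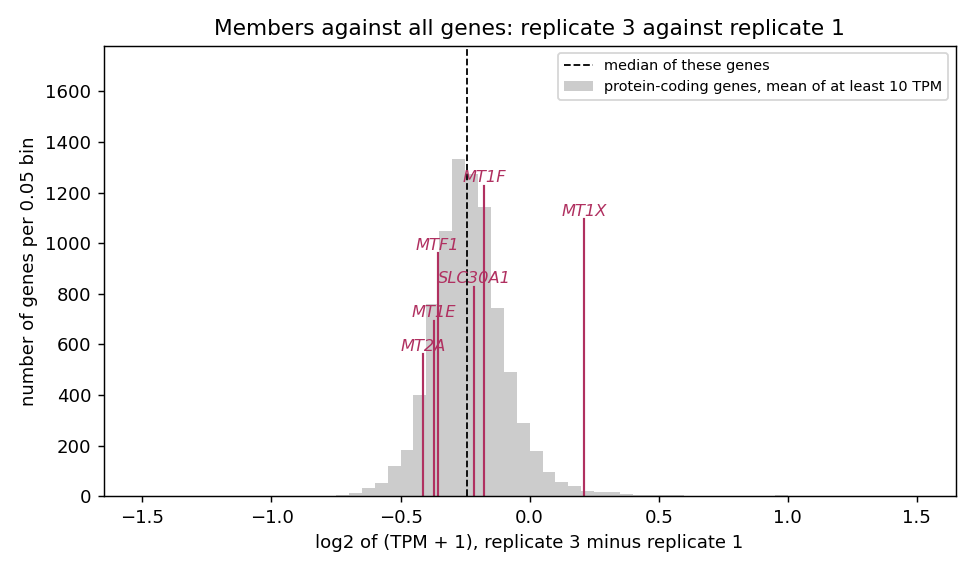
Number of protein-coding genes averaging 10 TPM or more by the difference of log2(TPM + 1) between replicate 3 and replicate 1 (grey bars), with their median (dashed line) and the 6 members with a mean of at least 1 TPM (red lines, whose heights carry no value). MT2A, MT1E and MTF1 lie left of the median of -0.24, SLC30A1 and MT1F just right of it and MT1X at 0.21. At the low level of MT1F, the 1 TPM added before the log shrinks the difference, so its side of the median is uncertain.

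With the replicates scaled by the median ratio of all genes in place of TPM, MT2A was at 4813, 5035 and 4248 and MT1E at 894, 969 and 812 in replicates 1, 2 and 3, and both kept replicate 3 as the lowest. The adjusted p of the chi-square test was 2.11e-60 for MT2A and 8.12e-10 for MT1E, and 31.7% of all genes tested were called on this scale. MTF1, at 17.8, 18.04 and 16.1, was no longer called (chi-square test, adjusted p = 0.195). MT1X, at 9.11, 8.05 and 12.6, was called (chi-square test, adjusted p = 0.0361), with a highest value 1.56-fold above the lowest. SLC30A1, at 125, 101 and 126, had its lowest value in replicate 2 and its highest in replicate 3.

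The other transporters of zinc were read from lists of the 2 families. Of the other 9 SLC30A exporters, 5 had a mean of at least 1 TPM, and of 14 SLC39A importers, 11 did, with medians of 3.06 and 25.7 TPM. The share over all protein-coding genes was 56.7%. No gene of these lists was on both sides of the cutoff in different replicates. By the chi-square test, 4 of 5 exporters and 9 of 11 importers with at least 15 reads differed between replicates. Over all genes the share was 54.3% of those with at least 15 reads and 83.8% of those with at least 1000 reads.

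SLC30A1 was the highest of the SLC30A family and made up 42.2 ± 0.764% (SD, n = 3) of its summed TPM. The next was SLC30A5, which loads zinc into the secretory pathway, at 68.7, 59.6 and 55.2 TPM, below SLC30A1 in 3 of 3 replicates by 0.93 on the log2(TPM + 1) scale. SLC30A9 followed at a mean of 39.5 TPM. SLC30A6, the partner of SLC30A5, had 29.2 ± 1.59 TPM and SLC30A7 27.7 ± 2.62 TPM (SD, n = 3 each), a difference within the spread of the replicates, and their values overlapped. SLC30A4 had 3.55, 2.11 and 3.52 TPM, with replicate 2 the lowest. SLC30A2, SLC30A8 and SLC30A10 had 0 reads in every replicate.

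Among the importers, SLC39A6 and SLC39A14 were highest, at 110 ± 7.86 and 109 ± 8.66 TPM (SD, n = 3 each), a difference within the spread whose sign changed between replicates. SLC39A9, SLC39A10 and SLC39A7 had means of 83.0, 76.5 and 68.9 TPM, and within this run neither neighbouring pair differed beyond its spread. SLC39A9 lay above SLC39A7 in every replicate. By canonical length the means of SLC39A9, SLC39A10 and SLC39A7 were 67.6, 64.8 and 74.3 TPM, so that their order depends on the length used. SLC39A8 and SLC39A13 had 50.8 and 32.6 TPM. SLC39A4, known as the importer of dietary zinc, had 22.5, 22.2 and 11.97 TPM, with replicate 3 far below the others, and its SD of 0.49 on the log2(TPM + 1) scale was the largest among the 16 transporters above the cutoff. SLC39A1, an importer of the plasma membrane, had 2.02, 1.70 and 1.72 TPM, but 95.9% of the canonical transcript overlaps exons of a further gene on the same strand, which makes this level uncertain. SLC39A5 had 0.640 TPM in replicate 2, from 7 reads, and 0 reads in the others.

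**Figure D5:**
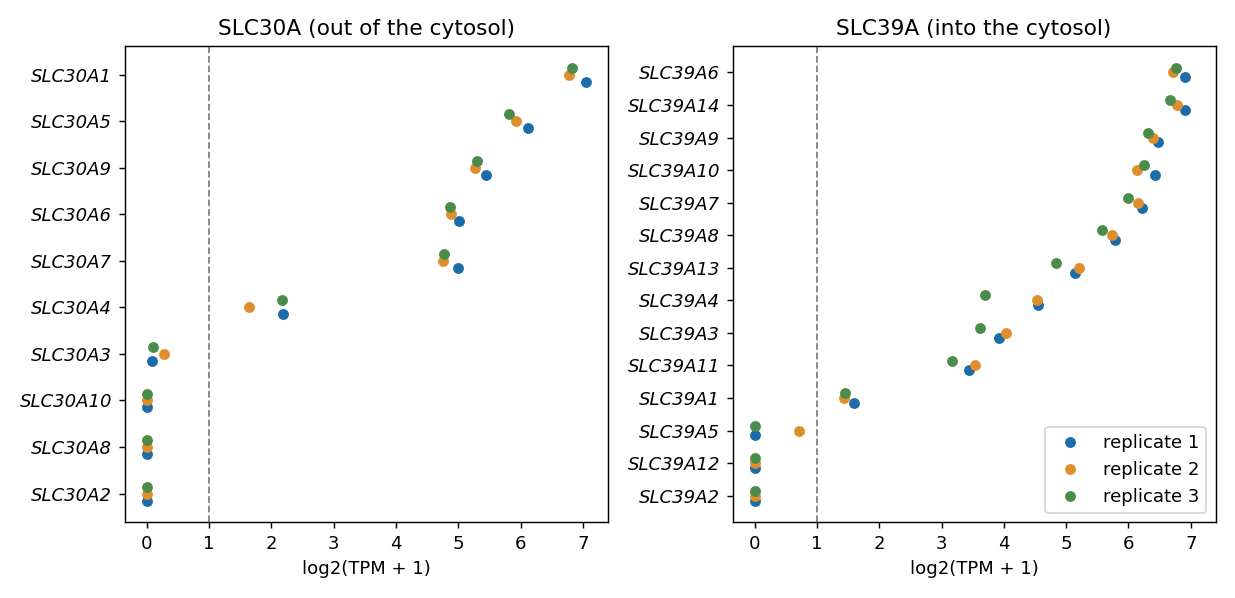
log2(TPM + 1) in replicates 1 to 3 of the 10 SLC30A genes, SLC30A1 included (left), and the 14 SLC39A genes (right), ordered by the mean, with the dashed line at 1 TPM. SLC30A1 leads its family near 7, and SLC39A6 and SLC39A14 lead theirs at about the same level.

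Copper is also bound by metallothioneins, and all 8 genes of copper handling were above 1 TPM in every replicate. By the mean, 56.7% of protein-coding genes were at or above this cutoff. By the deposited lengths, the highest was SOD1, the copper and zinc superoxide dismutase, at 303 TPM, followed by COX17, a copper chaperone of the mitochondria, at 111, 107 and 107 TPM. SLC31A1, the copper importer, had 47.5, 46.8 and 45.4 TPM, and ATP7A and ATP7B, the copper-exporting ATPases, had means of 5.15 and 4.16 TPM. ATOX1, which hands copper to them, had a mean of 30.6 TPM as deposited and of 232 TPM by canonical length, a larger shift than in any metallothionein member, which put it above COX17 at 137 TPM on that scale. Of the 5 other metal-responsive genes, all were above the cutoff, beside the same 56.7% of protein-coding genes. GCLC, for glutathione synthesis, had 77.2, 70.3 and 58.8 TPM, with replicate 3 the lowest, while HMOX1, a heme oxygenase that heavy metals induce, had 2.35, 2.07 and 2.90 TPM. PGF, SELENOH and SELENOW had means of 1.73, 3.84 and 29.9 TPM as deposited and of 2.88, 3.81 and 80.9 TPM by canonical length.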

How the data were processed

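RNA-seq of 3 replicates of untreated, empty-vector MCF10A cells was analysed. By the study's methods, the libraries were depleted of ribosomal RNA, and the authors used Seq2science for mapping (hg38) and counting. The labels' processing notes name fastp, STAR and MultiQC. Strand and the use of multi-mapping reads are not given in the sources used here. The authors deposited 1 table of TPM, which sums to 1000000 in each replicate, without a described filter, and 0 columns of values were left unused.

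Reads were recovered as the product of TPM and gene length (longest transcript, 1 base less per exon, GENCODE release 44) divided by its smallest value above 0. Among the 62700 annotated genes, of 62754, they were whole within 0.01 reads for 100% of the values above 0 in each replicate. This step is assumed to be 1 read. No correction for fragment length is visible. Duplicate reads cannot be told apart.

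Tests were a chi-square test of equal TPM over all genes with at least 15 reads (adjusted p under 0.05) and exact unpaired permutation tests. Log values used a pseudocount of 1 TPM. Canonical transcripts are those tagged in GENCODE. Lists were compared with the cutoff of 1 TPM. All members were named, with genes of the zinc, copper, metal-response and metallothionein lists, and the 3 protein-coding genes nearest to MT2A and SLC30A1. Members and lists were chosen with earlier results of these data known. Alternatives covered the cutoff, the summary, the length, the scaling, the pseudocount, the filters and leaving out each replicate. Scripts were tested on simulated data. Python 3.11.15, numpy 2.4.6, pandas 2.3.3, scipy 1.17.1, numba 0.67.0 and matplotlib 3.10.9 were used.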

Additional observations from a re-analysis of the deposited data

How the results depend on the processing

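No paired analysis of groups was possible because only 1 condition was measured and no groups were compared. Genes were compared within each replicate by the direction of their difference, and no paired test was run on them. The numbers of members (6) and of other zinc transporters (16) at or above 1 TPM were the same under every alternative run, other than 15 transporters at a cutoff of 2 TPM. By canonical length, MT2A was at 8771, MT1E at 734, SLC30A1 at 95.6, MT1X at 34.5, MTF1 at 14.2 and MT1F at 7.09 TPM, the metallothionein sum at 9547 TPM and the share of MT2A at 91.9%. With the 3-exon transcript for MT1E, an alternative chosen after seeing the data, MT2A was at 8771 TPM, the sum at 9592 TPM and the share at 91.4%. These shifts follow from the lengths themselves. With protein-coding genes alone scaled to the full TPM total, MT1F was at 2.69, MT1X at 11.4 and SLC30A1 at 135 TPM.

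The number of members whose reads differed between replicates was 4, and 0 when the highest replicate also had to exceed the lowest 1.5-fold, a rule that 12.9% of all genes passed in place of 54.3%. It ranged from 3 to 4 when 1 replicate was left out: without replicate 1 SLC30A1, and without replicate 3 MTF1, no longer differed. Of all genes tested, 46.7% were called without replicate 1, 46.7% without replicate 2 and 21.3% without replicate 3. The median spread of the members ranged from 0.0807 without replicate 3 to 0.266 without replicate 1, and it was 0.127 under median-ratio scaling. Leaving out 1 replicate gave 4425 to 5235 TPM for MT2A, 832 to 990 TPM for MT1E, 110 to 122 TPM for SLC30A1, 16.5 to 19.0 TPM for MTF1, 9.11 to 10.4 TPM for MT1X, 2.24 to 2.44 TPM for MT1F, 5270 to 6237 TPM for the sum and 83.7% to 83.9% for the share. It cannot move a mean of 3 by 1 SD and says nothing about stability. Depth limits what a count of 0 in a single library says of MT1A and MT1M, since 3 reads there are worth more than 1 TPM.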
